A study of Mus musculus with 15 samples.

Results

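The large intestine of mice given the high dose of cymopol was compared with that of mice given the vehicle alone. The comparison takes the 3 libraries labelled cymopol high dose (replicates 11, 12 and 14) and the 3 labelled control (replicates 2, 4 and 5), that is 6 of the 15 RNA sequencing libraries of the series. The genes tested are the 907 annotated genes, of 36591 annotated identifiers listed in these 6 libraries, that have a value in each of the 6 and reach at least 1 FPKM in at least 3 of them. FPKM, the deposited unit, divides the fragments of a gene by the length of its transcript and by the depth of the library. All animals were male C57Bl/6 mice aged 4 weeks. Each received 3 gavages, 1 every 24 h, and the animals were sampled 12 h after the final gavage. The vehicle, which all groups received, was Cremophor EL with 10% DMSO, and the high dose was 1.4 mmol/kg of cymopol. For comparison, values are also given for the cymopol low dose (0.3 mmol/kg, replicates 33, 34 and 35) and for the high dose of an algal extract (1.0 g/kg, replicates 21, 23 and 25). Whether each library of a group is a mouse of its own is not stated in the labels. Otherwise the spread behind the p-values may be technical.

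Cymopol is a brominated prenylated hydroquinone of the green alga Cymopolia barbata. Hydroquinones can be oxidised to quinones, electrophiles that react with the sensor protein KEAP1 and so release the transcription factor NRF2. NRF2 binds antioxidant response elements and induces quinone reductases, glutathione enzymes and heme oxygenase, which are used as readouts of electrophile exposure in the gut. The colon epithelium is made of absorptive surface colonocytes, mucus-secreting goblet cells, hormone-secreting enteroendocrine cells and the stem cells of the crypt base, and it lies on a wall of connective tissue, immune cells and smooth muscle. Small nucleolar RNAs (snoRNAs), which recur among the results, are short nuclear RNAs spliced out of the introns of host genes. Those of the H/ACA class direct pseudouridylation of ribosomal RNA and those of the C/D class its methylation at the ribose, and their relatives the scaRNAs act on spliceosomal RNAs in Cajal bodies.

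The vehicle libraries had fewer fragments in annotated genes than those of the cymopol high dose and were more uneven. Annotated genes held an estimated 310133, 365699 and 317116 fragments in cymopol replicates 11, 12 and 14, and 64113, 248245 and 30090 in vehicle replicates 2, 4 and 5. This was 65.2% to 65.5% of all fragments in each cymopol library, and 8.52%, 34.0% and 46.6% in the vehicle libraries. In total fragments only vehicle replicate 5 was shallower, with 64628, against 752138 and 730152 in vehicle replicates 2 and 4 and 473675 to 560916 with cymopol. These are estimates from the deposited intervals, and among genes above 0 the interval was too wide to give 0.5 of a fragment for 38.1%, 13.6% and 37.1% in the vehicle libraries and for 10.6% to 16.3% with cymopol. Vehicle replicates 2 and 5 had 46.8% and 25.1% of their fragments in intergenic loci, against 5.44% in vehicle replicate 4 and at most 7.52% in the cymopol libraries. Of the 907 genes, the share listed at 0 was 51.6%, 26.4% and 52.0% in the 3 vehicle libraries and ranged from 3.64% to 5.84% with cymopol (43.3% ± 14.7 against 4.48% ± 1.19, SD, n = 3 each; exact permutation test, two-sided, p = 0.1, the smallest that 3 against 3 allows). Of the 907 genes, 153 (16.9%) passed the filter through the cymopol libraries alone, so this share at 0 was set in part by the filter. The share of fragments in genes, taken without that filter, moved with the treatment, and its part in the gene results below was not tested. A gene listed at 0 is given as such and not as absent.

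**Figure D1:**
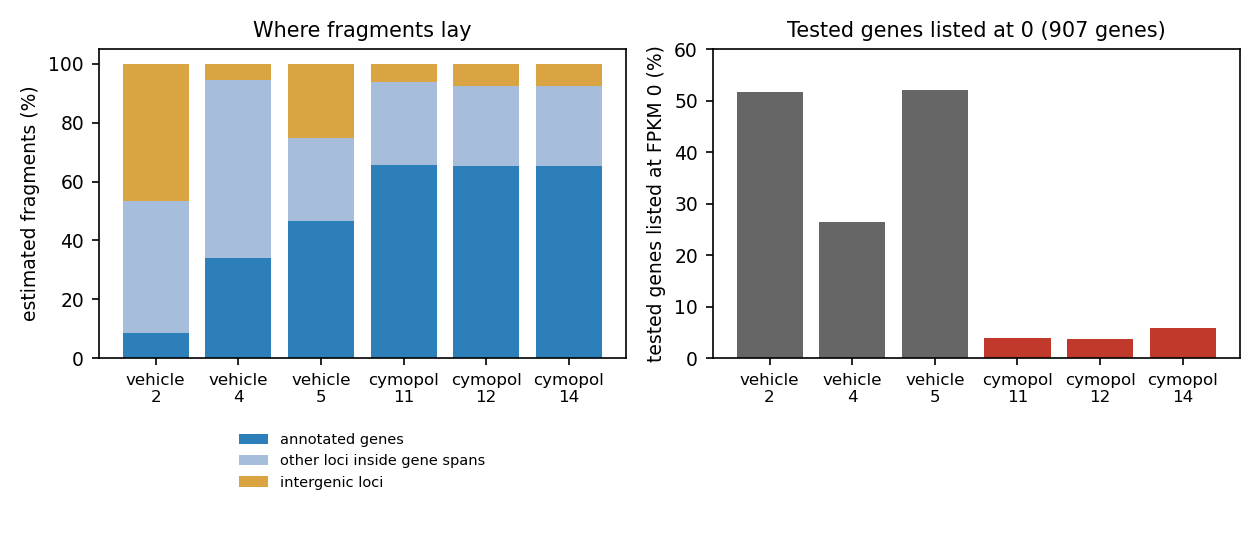
The left panel gives the share of estimated fragments (%) in annotated genes, in other loci inside gene spans and in intergenic loci for each library, and the right panel the share (%) of the 907 tested genes listed at 0 FPKM. The 3 cymopol libraries are alike in both panels, while vehicle replicate 2 has 8.52% of its fragments in genes and vehicle replicates 2 and 5 list over 51% of the genes at 0.

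The tissue label was checked with markers of the colon. Krt19, a keratin of simple epithelia, had 9.85, 40.4 and 108 FPKM in vehicle replicates 2, 4 and 5 and 237, 336 and 325 FPKM in cymopol replicates 11, 12 and 14, the order used throughout. Car1, the carbonic anhydrase of colonocytes, had 40.5, 421 and 1889 FPKM in the vehicle and 1006, 313 and 826 FPKM with cymopol. Both markers were thus present in all 6 libraries, and lowest in vehicle replicate 2.

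Of the 907 genes, 100 (11%) were called higher with cymopol and 1 (0.11%) was called lower, at an adjusted p under 0.05 by limma on log2(FPKM + 1) with Benjamini-Hochberg adjustment. The genes called higher included 9 snoRNAs, 1 scaRNA, the goblet cell peptide Tff3, the gut glutathione peroxidase Gpx2 and Atp5mpl, a small protein of ATP synthase. Only 2 of the 100, Tff3 and Ndufs6, reached 1 FPKM in any vehicle library, and 84 were listed at 0 in all 3. The other 98 passed the filter through the cymopol libraries alone, so the filter itself required a difference. Their number, and the adjusted p-values printed for them below, are a description and not support. Among the 754 genes with at least 1 FPKM in a vehicle library, tested by themselves, 0 were called, with 38 higher and 1 lower at an unadjusted p under 0.05. The number called was 3 without vehicle replicate 2, 21 without vehicle replicate 4, 0 without vehicle replicate 5 and 90 without any 1 of the cymopol libraries. The median difference over the 907 genes was 0.98, and 764 (84.2%) had a difference above 0. It was 0.50 after median-of-ratios scaling and -0.09 after quantile normalization, where 45.2% of the genes were above 0. Differences are cymopol minus vehicle in mean log2(FPKM + 1), which understates the change of low genes and is no fold change against a value of 0.

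By size of difference, snoRNAs took the first 4 places among the called genes. Of 44 snoRNAs and scaRNAs that were tested, 10 were called higher, beside 11% of all genes. Among the 10, 8 had the ACA box 3 bases before the 3′ end that marks the H/ACA class. The other 2 had the C box (TGATGA) and D box (CTGA) of the C/D class. No vehicle library held a value above 0 for any of the 10, so they passed the filter through the cymopol libraries alone, whereas each of the 34 that were not called was above 0 in at least 1 of them. The 5 of largest difference are printed here in full, because their boxes give the class and because 2 of them are near copies of each other. They are transcript sequences from GENCODE M21 on GRCm38, written 5′ to 3′ in DNA letters, with the boxes in capitals.
Gm23455: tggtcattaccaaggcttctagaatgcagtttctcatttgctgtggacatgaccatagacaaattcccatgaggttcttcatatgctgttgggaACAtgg
Gm22422: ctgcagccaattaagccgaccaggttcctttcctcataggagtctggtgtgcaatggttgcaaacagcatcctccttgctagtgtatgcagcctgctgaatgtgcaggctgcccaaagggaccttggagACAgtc
Gm23734: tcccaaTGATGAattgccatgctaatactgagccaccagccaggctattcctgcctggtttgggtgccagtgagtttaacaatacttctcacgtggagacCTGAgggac
Snord8: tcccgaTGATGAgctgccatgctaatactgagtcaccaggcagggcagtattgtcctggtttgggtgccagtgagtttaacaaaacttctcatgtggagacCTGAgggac
Snora30: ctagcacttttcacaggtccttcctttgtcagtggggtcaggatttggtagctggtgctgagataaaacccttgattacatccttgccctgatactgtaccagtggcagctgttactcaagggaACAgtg

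Gm23455 is an H/ACA RNA on the plus strand at chr9:15316489-15316588 (GRCm38), inside Taf1d, the gene of a subunit of the RNA polymerase I factor SL1. It was listed at 0 in the 3 vehicle libraries and had 148, 168 and 82.1 FPKM with cymopol, from an estimated 11.0, 9 and 5 fragments. The listed values gave a difference of 7.0 ± 1.08 (SE; limma, adjusted p = 0.0173), with cymopol replicate 14 the lowest of the 3. Taf1d itself had 0.373, 0 and 9.07 FPKM in the vehicle and 0, 2.84 and 0 with cymopol, so the groups overlapped in the host gene. Gm22422, an H/ACA RNA on the minus strand at chr16:56035753-56035887, lies inside Trmt10c, which encodes a subunit of mitochondrial RNase P. It was listed at 0 in the vehicle and had 68.1, 117 and 96.2 FPKM with cymopol (difference 6.53 ± 1.06 SE; limma, adjusted p = 0.0173). Its host gave no such pattern, with 0, 11.5 and 0 FPKM in the vehicle and at most 0.40 with cymopol. Snora30, an H/ACA RNA on the plus strand at chr7:127527874-127528003 inside the chromatin remodeller gene Srcap, had 64.2, 64.3 and 19 FPKM with cymopol, against a listing at 0 in all 3 vehicle libraries. Cymopol replicate 14 was the lowest of the 3, and the difference was 5.46 ± 1.05 (SE; limma, adjusted p = 0.0181).

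Snord8 and Gm23734 are C/D box RNAs on different chromosomes that share 99 of 112 aligned positions (88.4% identity), so fragments of one could have been counted for the other. Gm23734, on the plus strand at chr1:127375131-127375239 inside the glycosyltransferase gene Mgat5, had no vehicle value above 0 and 61.4, 115 and 80.7 FPKM with cymopol. The difference in listed values was 6.39 ± 1.05 (SE; limma, adjusted p = 0.0173). A count of 0 allows up to 29.7, 75.9 and 360 FPKM for Gm23734 in vehicle replicates 2, 4 and 5, by a limit of 3 fragments, and the lowest cymopol value of 61.4 lay below the latter 2. Snord8, on the minus strand at chr14:52209785-52209894 inside Chd8, a chromodomain helicase gene, had 123, 113 and 15.7 FPKM with cymopol, again with no vehicle value above 0. The value in cymopol replicate 14 rested on an estimated 1.00 fragment, and the difference was 5.95 ± 1.16 (SE; limma, adjusted p = 0.0181). Chd8 had 5.55, 19.6 and 3.48 FPKM in the vehicle and 5.38, 12.1 and 11.6 with cymopol, with overlap between the groups.

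The other 5 called members of this class were lower, chosen for mention after their values were seen. The scaRNA Gm22442, in the remodeller gene Chd3, had 11.1, 38.8 and 18.3 FPKM with cymopol, and the H/ACA RNAs Snora78, Gm25636, Snora62 and Gm26448 lay between 3.49 and 50.5 FPKM. With voom on estimated fragments the difference of Gm25636 was -0.010. These RNAs are only 100 to 203 bases long, and the 10 called ones rested on 1.00 to 11.9 estimated fragments in each cymopol library, with a median of 4.00. What depth allows can be set beside this. A single fragment was worth 10.8 times as many FPKM in vehicle replicate 5 as in cymopol replicate 11, 2.29 times as many in vehicle replicate 4 and 0.894 times as many in vehicle replicate 2. For Gm23455, a count of 0 allows up to 30.2, 77.1 and 366 FPKM in vehicle replicates 2, 4 and 5, taking 3 fragments as the upper limit for counting error alone. The lowest cymopol value of 82.1 was above the limits of the first 2 and below that of the third. Of the 60 called genes listed at 0 in all vehicle libraries that had a fragment estimate, all 3 cymopol values exceeded the limits of vehicle replicates 2 and 4 for 36, and that of vehicle replicate 5 for 0. A difference from vehicle replicate 5 alone was therefore not detectable at this depth for any of the 60.

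**Figure D2:**
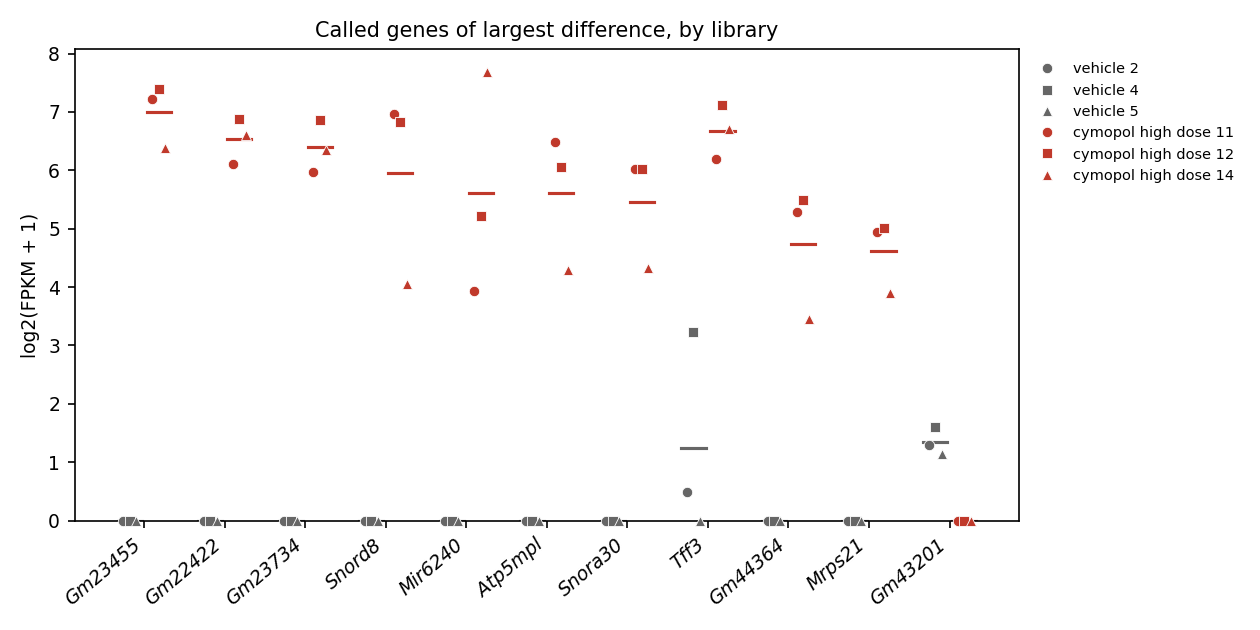
Points give log2(FPKM + 1) of each library for the 10 genes called higher with the largest differences and for the 1 gene called lower, with grey for vehicle, red for cymopol high dose, 1 symbol per replicate and bars at the group means. Of the genes called higher, Tff3 alone has vehicle values above 0, and cymopol replicate 14 is the lowest cymopol point for Snord8, Snora30 and Atp5mpl but the highest for Mir6240.

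The only 2 other short RNAs among the 10 largest were annotated as microRNA genes. Mir6240, on chromosome 5, had 14.4, 36.1 and 205 FPKM with cymopol against 0, 0 and 0 in the vehicle (5.61 ± 1.19 SE; limma, adjusted p = 0.0181). Its 3 cymopol values spanned more than those of any other gene in the plot of called genes. Gm44364, on chromosome 6, had 37.8, 43.8 and 9.98 FPKM against 0, 0 and 0 (4.74 ± 1.03 SE; limma, adjusted p = 0.0181). With voom on estimated fragments its difference was -0.033, and the call was lost. A library of this kind does not select mature microRNAs, so these values describe fragments over the annotated gene.

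The lists of mitochondrial proteins were examined next, beginning with Atp5mpl, which is in neither list and is named for the size of its difference. Atp5mpl, a subunit associated with ATP synthase, had 88.6, 65.4 and 18.6 FPKM with cymopol against 0, 0 and 0 in the vehicle (5.61 ± 1.08 SE; limma, adjusted p = 0.0181). Mrps21, a protein of the small mitochondrial ribosomal subunit, had 29.8, 31.1 and 13.9 FPKM against 0, 0 and 0 (4.61 ± 0.979 SE; limma, adjusted p = 0.0181). In both genes all cymopol libraries lay above all vehicle libraries, and replicate 14 was the lowest of the 3. Of the 77 nuclear genes of the respiratory chain and ATP synthase, 17 were among the 907 and 4 were called higher, namely Cox7c, Ndufa4, Ndufs4 and Ndufs6, beside 11% of all genes, and 5 of the 17 passed the filter through the cymopol libraries alone. Cox7c, a subunit of cytochrome c oxidase, had 13.7, 19.6 and 32.0 FPKM against 0, 0 and 0 (4.43 ± 0.967 SE; limma, adjusted p = 0.0181). Ndufs6, an accessory subunit of complex I, had 21.4, 28.0 and 26.1 FPKM against 0, 3.38 and 0 (3.99 ± 1.08 SE; limma, adjusted p = 0.0353). It was 1 of the 2 called genes to reach 1 FPKM in a vehicle library, but that value rested on an estimated 0.995 of a fragment. The mitochondrial ribosomal proteins had 11 members among the 907, of which Mrps21, Mrpl43, Mrpl34 and Mrps30 were called higher, again beside 11%, and 5 of the 11 passed the filter through the cymopol libraries alone. Mrpl43 had 11.7, 22.8 and 14.5 FPKM and Mrpl34 had 28.6, 13.3 and 8.63 FPKM, both against a listing at 0 in the vehicle. Coa3, which helps assemble cytochrome c oxidase, and Cisd1, an iron-sulfur protein of the outer mitochondrial membrane, were also called, with 14.8 to 27.0 and 4.27 to 15.2 FPKM, and were picked for mention after their values were seen.

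Of 26 genes of endoplasmic reticulum (ER) chaperones and the unfolded protein response, 4 were among the 907 and 2 were called higher, beside 11% of all genes. Both passed the filter through the cymopol libraries alone. Dnajb9, a co-chaperone of the ER lumen, had 1.47, 4.98 and 3.40 FPKM, and Sdf2l1, another ER protein of the chaperone system, had 5.15, 8.13 and 9.87 FPKM, both listed at 0 in the vehicle. Their differences were 2.01 ± 0.513 and 3.08 ± 0.837 (SE; limma, adjusted p = 0.029 and 0.0353). Psmb2, a subunit of the proteasome core, was the 1 called of 3 tested proteasome genes and likewise passed through the cymopol libraries alone, with 5.76, 11.2 and 7.46 FPKM against 0, 0 and 0. Histone genes Hist1h1b, Hist1h4a, Hist1h4b and Hist2h2ac were called as well, with 1.52 to 12.0 FPKM in the cymopol libraries and a listing at 0 in the vehicle. These 4 were named after their values were seen, and histone genes have near-identical copies between which fragments cannot be divided with certainty.

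Products of epithelial cells were also among the called genes. Tff3, the trefoil peptide that goblet cells secrete with mucus (ENSMUSG00000024029, chr17:31125306-31129646), had 72.3, 139 and 103 FPKM with cymopol and 0.406, 8.42 and 0 FPKM in the vehicle, from an estimated 106, 142 and 121 against 1, 7 and 0 fragments. All cymopol libraries were above all vehicle libraries, by 5.43 ± 1.25 (SE; limma, adjusted p = 0.024). Muc2, the main secreted mucin of the same cells, had 194, 536 and 838 FPKM in the vehicle and 708, 661 and 321 FPKM with cymopol, a difference of 0.26 that did not pass (limma, adjusted p = 0.912) and was -0.91 after median-of-ratios scaling. The 2 products of goblet cells thus did not show the same pattern, and neither did Spink4, with 0, 0 and 45.5 against 98.8, 99.0 and 29.6 FPKM. Gpx2, the selenium-dependent glutathione peroxidase of gut epithelium and an NRF2 target (ENSMUSG00000042808, chr12:76792333-76795554), had 14.3, 25.9 and 11.3 FPKM against 0.447, 0 and 0. The groups did not overlap, and the difference was 3.92 ± 0.964 (SE; limma, adjusted p = 0.026). The deposited interval of Gpx2 is wider than counting allows, so its depth is unknown. Voom, which reads it at under 0.5 of a fragment in each library, gave -2.10. Smoc2, a matrix protein made by intestinal stem cells, had 1.46, 4.36 and 2.03 FPKM against 0, 0 and 0 (1.77 ± 0.426 SE; limma, adjusted p = 0.0243).

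The 1 gene called lower was Gm43201, on chromosome 5, which the annotation places in no settled class of transcript. It had 1.45, 2.06 and 1.20 FPKM in the vehicle and was listed at 0 in the 3 cymopol libraries, a difference of -1.35 ± 0.265 (SE; limma, adjusted p = 0.0181). Only 1 other gene among the 907 was lower without overlap, Cep295nl, at 1.02, 3.36 and 1.5 against 0, 0.711 and 0 FPKM, and it did not pass (limma, adjusted p = 0.109). Together these were 0.221% of the genes, against 229 genes (25.2%) that were higher without overlap. Neither Gm43201 nor Cep295nl reached 1 FPKM in a cymopol library, so both passed the filter through the vehicle libraries alone. Their lack of overlap and adjusted p-values are a description and not support.

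Among genes detected in every library, where no value of 0 enters the difference, no gene passed. Of the 907 genes, 219 were above 0 in all 6 libraries. Tested by themselves 0 were called, with 15 higher and 0 lower at an unadjusted p under 0.05 by limma. Among these, Cox6b1, a cytochrome c oxidase subunit, had 0.440, 21.3 and 5.09 FPKM in the vehicle and 74.5, 72.6 and 71.4 FPKM with cymopol. The cymopol libraries were nearly equal while the vehicle libraries spread widely, and the difference of 3.67 ± 1.30 did not pass among the 907 genes (SE; limma, adjusted p = 0.106). In the fit of the 219 genes alone the smallest adjusted p was 0.586. Uqcr10, a subunit of complex III, had 0.853, 28.6 and 41.4 against 108, 118 and 74.8 FPKM. Ethe1, the mitochondrial persulfide dioxygenase, had 2.78, 15.3 and 40.3 against 111, 71.5 and 69.9 FPKM. Suclg2, a subunit of succinyl-CoA ligase, had 0.705, 0.257 and 1.23 against 7.70, 5.72 and 5.77 FPKM. In all 4 the cymopol libraries lay above the vehicle libraries, with vehicle replicate 2 or 4 the lowest, and none passed. Genes above 0 in all 6 libraries were named by size only where the groups did not overlap. The separation in these 4 is therefore a description and not support.

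Most genes lack a value of their own in at least 1 of the 6 libraries, because part of each library was listed under loci assembled in that library. In an alternative chosen after seeing the data, such a locus was given to the annotated gene it coincided with, which left 8451 genes to test. Of these 0 were called, with a smallest adjusted p of 0.0648 by limma, that of Gm23455, and Tff3 and Gpx2 at 0.0747. At an unadjusted p under 0.05, 1185 (14%) were higher and 16 (0.189%) lower, and 1622 (19.2%) were higher without overlap between the groups against 32 (0.379%) lower. A count model on estimated fragments (voom) called 19 higher and 14 lower, but 0 among the 4406 genes whose values above 0 all had a usable estimate, of at least 0.5 of a fragment. The median difference over the 8451 genes was 0.92, 0.34 after median-of-ratios scaling and -0.05 after quantile normalization, so gene groups are given below relative to the median of all genes. Values in the rest of the account are from these 8451 genes unless stated, and none of their differences passed. Of the 8451, 734 (8.69%) passed the filter through the cymopol libraries alone. For these, lack of overlap and the p-values are a description and not support.

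Direct targets of NRF2 were examined by their roles, beginning with quinone and carbonyl reduction. Nqo1, the NRF2-dependent quinone reductase (ENSMUSG00000003849, chr8:107388225-107403206), had 0.167, 0 and 0 FPKM in the vehicle and 5.15, 5.31 and 4.19 FPKM with cymopol. These values rested on an estimated 1.00, 0 and 0 against 32.7, 18.9 and 18 fragments. The 3 cymopol libraries were close to one another and above all vehicle libraries, with a difference of 2.48 ± 0.751 (SE; limma, adjusted p = 0.0747). Akr1b8, an aldo-keto reductase that reduces reactive aldehydes, had 1.26, 0 and 0 against 17.2, 23.7 and 12.8 FPKM (3.81 ± 1.16 SE; limma, adjusted p = 0.0747). Its relative Akr1b7 had 0, 0 and 0 against 4.16, 1.97 and 13.4 FPKM, also without overlap. Cbr3, a carbonyl reductase, had 0, 0 and 15.4 against 15.9, 8.21 and 12.6 FPKM, and vehicle replicate 5 lay within the cymopol range. Over the whole list of 20 reductases, 17 were tested and 7 (41.2%) were higher without overlap, beside 19.2% of all genes, with a median difference of 1.99, 1.07 above all genes and 0.66 without vehicle replicate 4. Of the 17, 3 passed the filter through the cymopol libraries alone, Nqo1 and Akr1b7 among them. Where only genes with at least 1 FPKM in a vehicle library were kept, 14 members stood 0.58 above.

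Glutathione synthesis did not show a common pattern. Gclc, the catalytic subunit of glutamate-cysteine ligase, had 0.253, 17.1 and 0 FPKM in the vehicle and 22.2, 3.02 and 19.7 FPKM with cymopol, and vehicle replicate 4 exceeded cymopol replicate 12. Gclm, its modifier subunit, had 5.64, 23.6 and 12.4 against 12.1, 11.9 and 32.0 FPKM, a difference of 0.45 (limma, adjusted p = 0.894) that was -0.62 after median-of-ratios scaling. The enzymes that use or recycle glutathione were further apart. Gpx4, which reduces lipid peroxides, had 0, 1.86 and 0 against 10.2, 22.4 and 12.3 FPKM and did not overlap. Gsr, the glutathione reductase, had 0.363, 0 and 10.9 against 9.27, 25.0 and 15 FPKM and did overlap. Of 15 listed genes 10 were tested and 2 (20%) were higher without overlap, near the 19.2% of all genes. Their median difference of 2.10 was 1.18 above all genes and between 0.77 and 1.68 above without any 1 library, lowest without cymopol replicate 11. For Gpx4, voom on matched loci gave -2.49 from estimates under 0.5 of a fragment.

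Glutathione S-transferases and the cystine transporter were mixed. Gstm1 had 2.28, 14.2 and 25.8 FPKM in the vehicle and 48.7, 82.9 and 25.9 FPKM with cymopol, so that vehicle replicate 5 and cymopol replicate 14 were nearly equal. Gsta4, which conjugates lipid aldehydes, was listed at 0 in the vehicle and had 10.7, 1.88 and 8.19 FPKM with cymopol. It passed the filter through the cymopol libraries alone, and was not called among the 907 genes (2.76; limma, adjusted p = 0.052). Gsta1 had 0, 3.94 and 0 against 4.55, 1.61 and 1.79 FPKM, with overlap. Of 21 transferases 13 were tested, and 4 (30.8%, beside 19.2%) were higher without overlap, at a median 0.62 above all genes, 0.30 without vehicle replicate 2 and -0.042 without cymopol replicate 11. Slc7a11, the cystine importer that NRF2 and ATF4 induce, reached at most 0.402 FPKM in any of the 6 libraries and was not tested. Cyp1a1, the marker of the aryl hydrocarbon receptor, was listed at 0 in the vehicle and had 0, 1.22 and 0.107 FPKM with cymopol, also too low to test.

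In the thioredoxin branch the cymopol libraries were above the vehicle for several genes. Txnrd1, thioredoxin reductase, had 0.831, 2.89 and 11.2 against 20.1, 20.3 and 43.7 FPKM, without overlap (2.62 ± 1.27 SE; limma, adjusted p = 0.355). As for Gpx4, voom on matched loci read Txnrd1 at under 0.5 of a fragment and gave -2.48. Prdx1, a peroxiredoxin, had 2.09, 15.5 and 5.55 against 29.3, 87.5 and 48.1 FPKM, again without overlap. Srxn1, which repairs oxidised peroxiredoxins, had 1.20, 2.24 and 7.20 against 9.75, 5.12 and 38.6 FPKM, and vehicle replicate 5 exceeded cymopol replicate 12. Of 19 listed genes 15 were tested, 1 of which passed the filter through the cymopol libraries alone. Higher without overlap were 6 (40%, beside 19.2%), at a median 0.93 above all genes. This was 0.53 after median-of-ratios scaling, 0.44 without vehicle replicate 2 and between 0.30 (without cymopol replicate 14) and 1.40 (without vehicle replicate 5) over the 6 libraries left out in turn. Hmox1, heme oxygenase (ENSMUSG00000005413, chr8:75093621-75100589), was listed at 0 in the vehicle and had 4.38, 1.88 and 1.02 FPKM with cymopol (1.65 ± 0.498 SE; limma, adjusted p = 0.0747). It passed the filter through the cymopol libraries alone. Of 10 tested genes of heme breakdown and ferritin, 3 (30%, beside 19.2%) were higher without overlap, at a median 0.74 above all genes and 0.16 without vehicle replicate 4. Their summed FPKM overlapped, at 41.7, 684 and 1156 in the vehicle and 744, 654 and 442 with cymopol. The NADPH-producing enzymes that feed the reductases above had 4 of 10 members higher without overlap (40%, beside 19.2%), G6pdx, Idh1, Taldo1 and Pgd, at a median 0.45 above all genes. G6pdx, the entry enzyme of the pentose phosphate pathway, had 0, 0 and 5.00 against 10.1, 10.8 and 7.49 FPKM. Keap1, the sensor itself, had 0.416, 0.669 and 5.86 against 5.99, 9.53 and 12.5 FPKM, and Nfe2l2, which encodes NRF2, had 0.836, 3.35 and 5.11 against 6.38, 8.80 and 7.98 FPKM. In the list of NRF2 and its regulators, 4 of 11 tested members (36.4%, beside 19.2%) were higher without overlap. The median of that list was 0.32 above all genes, 0.040 after median-of-ratios scaling and 0.060 without vehicle replicate 4. Drug-metabolising cytochrome P450s and conjugating enzymes were 0.48 above all genes, and 0.20 above without vehicle replicate 4. The ABC efflux transporters were 0.22 below them with 0 of 8 members higher without overlap (median difference minus that of all genes -0.22, and 0.0060 without cymopol replicate 12).

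**Figure D3:**
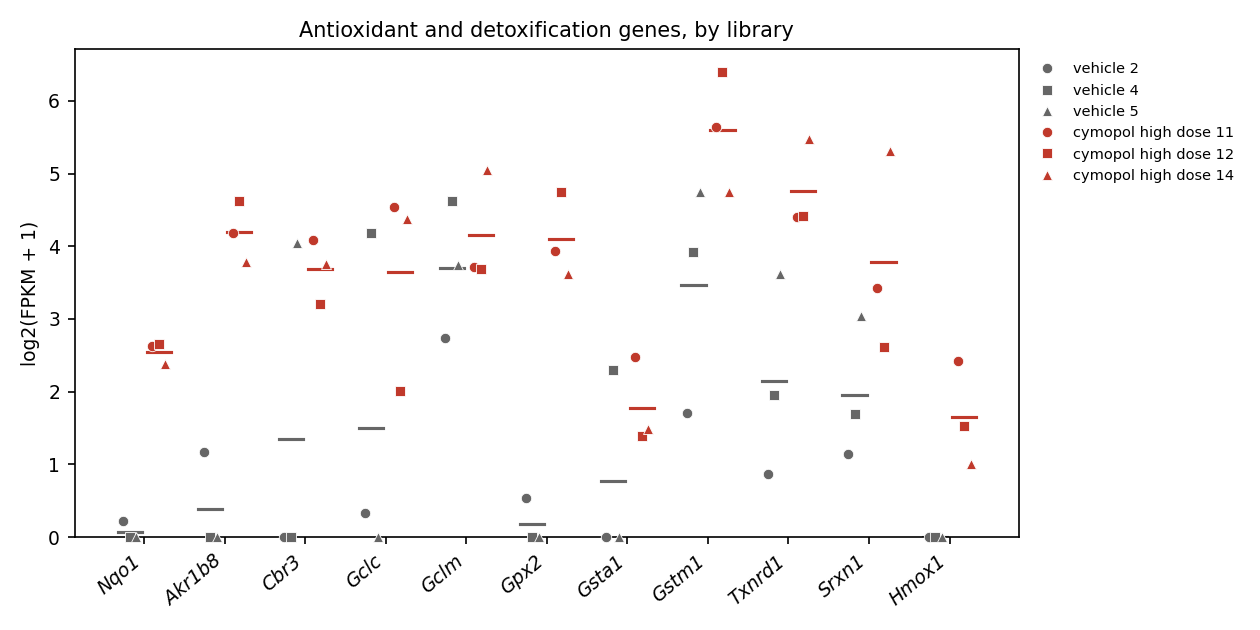
Points give log2(FPKM + 1) of each library for 11 antioxidant and detoxification genes, with grey for vehicle, red for cymopol high dose and bars at the group means. Nqo1, Akr1b8, Gpx2, Txnrd1 and Hmox1 show groups that do not overlap, Gstm1 touches at vehicle replicate 5 and cymopol replicate 14, and in Gclm the groups lie over each other.

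The promoters of these genes were searched for the core of the antioxidant response element, TGACNNNGC on either strand, in RefSeq promoters of 300 bases (250 before and 50 after the start, GRCm38.p6). Of 95 members of the 6 lists from quinone reductases to NADPH-producing enzymes, 80 had a promoter there and 15 held the core, in 17 of 109 promoters (15.6%). Over all 32851 promoters the share was 12.4%. Windows of 29 bases around the core are printed for the 5 members whose values are given above, with the core in capitals, read on the plus strand for G6pdx and on the minus strand for the others.
G6pdx, chrX:74428919-74428947: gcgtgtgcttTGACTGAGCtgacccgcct
Gclm, chr3:122245413-122245441: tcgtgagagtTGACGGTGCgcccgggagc
Prdx1, chr4:116685456-116685484: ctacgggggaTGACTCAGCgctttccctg
Srxn1, chr2:152105542-152105570: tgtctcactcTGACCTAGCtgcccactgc
Txnrd1, chr10:82859104-82859132: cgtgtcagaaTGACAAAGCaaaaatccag
G6pdx, Prdx1 and Txnrd1 are higher without overlap, while Srxn1 and Gclm overlap between the groups, so the 5 with a core in this window include both patterns. The promoters of Nqo1, Gpx2, Gsta1, Gstm1, Akr1b8 and Cbr3 did not hold these letters in the window.

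Beyond NRF2, the nuclear genes of the respiratory chain and ATP synthase stood out by count, with 38 of 74 tested members (51.4%) higher without overlap and 0 lower, beside 19.2% over all genes. Their median difference was 2.20, 1.28 above all genes, 1.09 above after median-of-ratios scaling and 1.23 above where a vehicle library reached 1 FPKM. Of the 74 members, 9 passed the filter through the cymopol libraries alone, Ndufb7 among them. Atp5b, the catalytic beta subunit of ATP synthase, had 12.7, 67.0 and 243 FPKM in the vehicle and 600, 594 and 624 FPKM with cymopol. The cymopol libraries were nearly equal and the vehicle spread over a wide range below them, and the gene did not pass (3.32; limma, adjusted p = 0.229). Cox5a, of cytochrome c oxidase, had 0.494, 12.4 and 0 against 48.2, 78.8 and 76.7 FPKM (4.63 ± 1.33 SE; limma, adjusted p = 0.0747). Ndufb7, of complex I, had 0.193, 0 and 0 against 13.2, 14.9 and 54.8 FPKM. The mitochondrial ribosomal proteins followed with 20 of 47 (42.6%), at a median 0.71 above all genes (0.35 without vehicle replicate 4 and 1.23 without vehicle replicate 2), but 16 of the 47 passed the filter through cymopol libraries alone, and those seen in the vehicle were only 0.30 above. Cytosolic ribosomal proteins had 18 of 73 (24.7%) higher without overlap, at a median 0.87 above all genes, 0.46 after scaling, 0.44 without vehicle replicate 2 and 1.40 without vehicle replicate 4. Rps3 had 0.267, 14.1 and 0 FPKM in the vehicle and 26.3, 62.1 and 55.4 FPKM with cymopol. All of these groups moved together with the share of fragments that fell in genes, and the part of that share was not tested.

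Stress programmes other than NRF2 differed in their medians. The ER chaperones and genes of the unfolded protein response were 0.55 above all genes, 0.29 after median-of-ratios scaling and 0.31 without vehicle replicate 4, with 9 of 26 (34.6%, beside 19.2% of all genes) higher without overlap. Of the 26, 4 passed the filter through the cymopol libraries alone, and those seen in the vehicle were 0.53 above. Apoptosis genes were 0.54 above with 3 of 18 (16.7%) and metal response genes 0.51 above with 3 of 9 (33.3%). These 2 lists stood at -0.16 without vehicle replicate 4 and at -0.27 without cymopol replicate 11, respectively. Of the 9 metal response genes, 1 passed the filter through the cymopol libraries alone. Genes of the ATF4 amino acid response were 0.16 above all genes with 5 of 20 (25%) higher without overlap. Of the 20, 4 passed the filter through the cymopol libraries alone. Among them Asns, asparagine synthetase, was listed at 0 in the vehicle and had 6.37, 5.08 and 3.91 FPKM with cymopol. The median of the ATF4 list was 0.00071 above all genes where a vehicle library reached 1 FPKM, and at -0.074 without cymopol replicate 11. Heat shock proteins were 0.13 above all genes, and at -0.14 without vehicle replicate 2, with 1 of 21 higher without overlap, Hspe1, the mitochondrial co-chaperonin, at 1.13, 12.9 and 0 against 17.9, 29.5 and 14.9 FPKM. Targets of p53 were 0.08 above, and 0.50 above without vehicle replicate 5, with 6 of 13 (46.2%) higher without overlap. Of the 13, 1 passed the filter through the cymopol libraries alone. Cdkn1a, the cell cycle inhibitor, had 3.28, 13.9 and 23.2 against 49.6, 51.2 and 40.5 FPKM. The circadian clock genes were the longer list farthest below, with a median difference of -0.15 over 17 members, -1.07 relative to all genes, and 1 member, Hlf, higher without overlap. Interferon response genes stood at -0.62 relative to all genes over 9 members, and at -0.23 without vehicle replicate 4. No list had a member that was lower without overlap. Of 47 lists with at least 3 members tested, 37 had a median above that of all genes, 35 of them also after median-of-ratios scaling and 36 after quantile normalization.

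**Figure D4:**
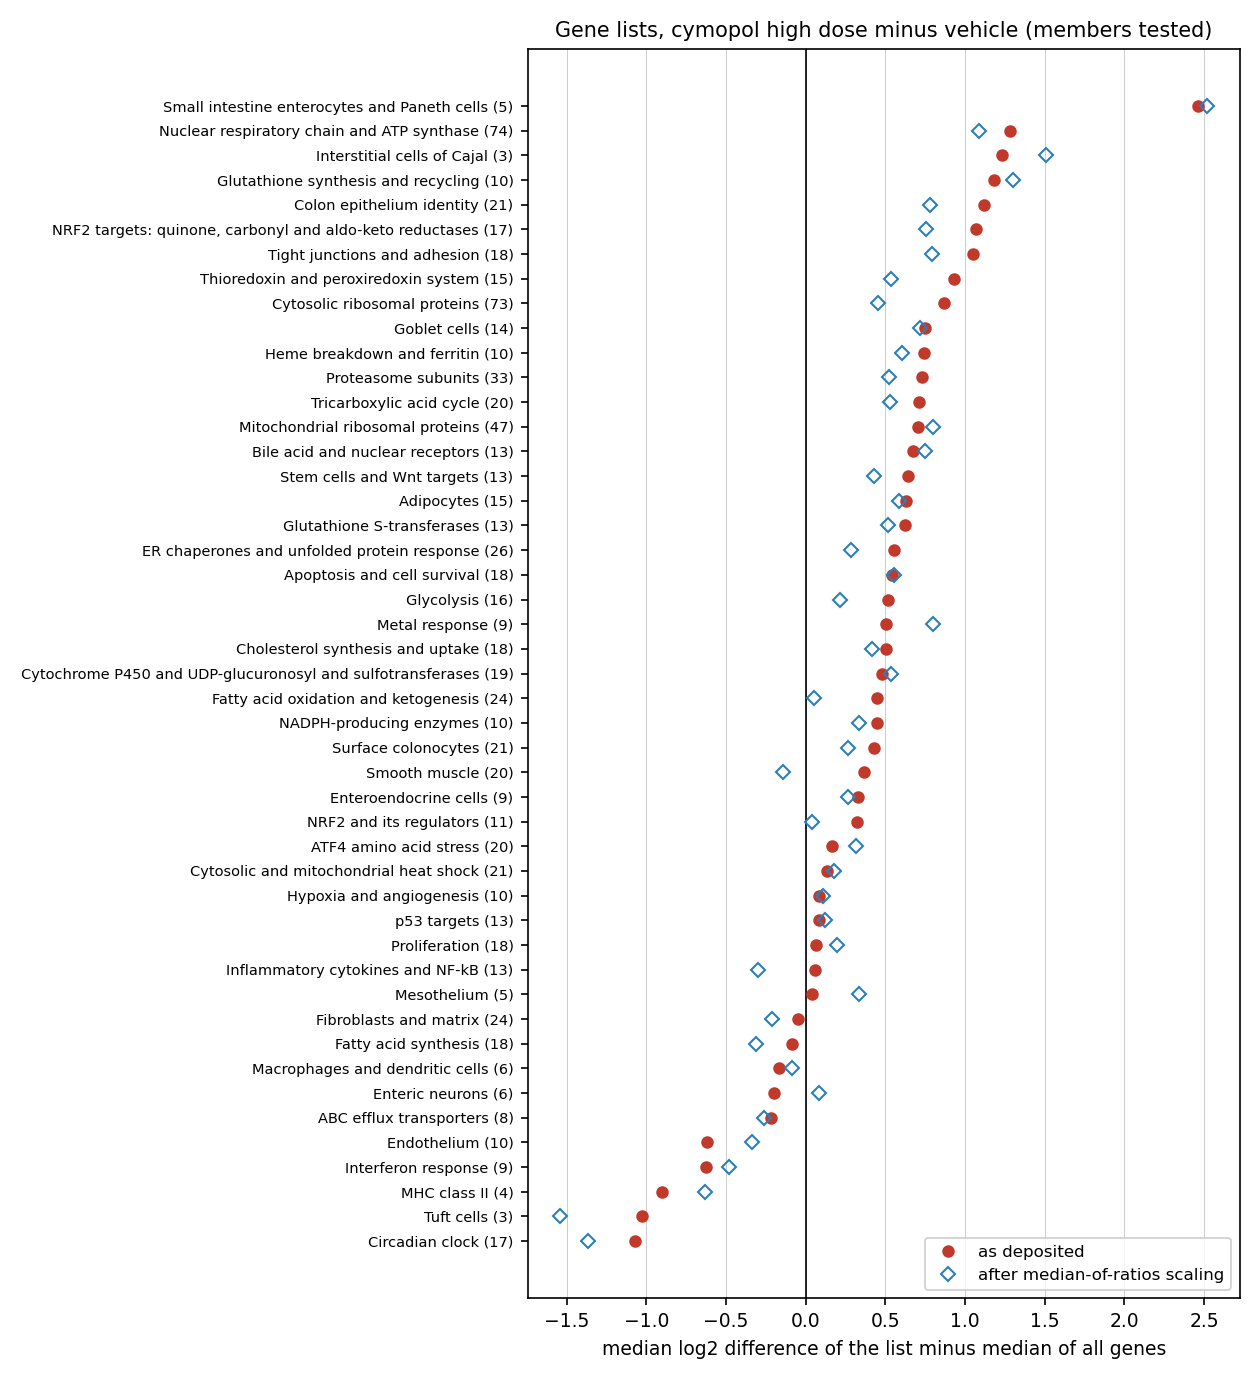
Each line gives the median difference of a gene list minus the median of all 8451 genes, in log2(FPKM + 1), with the number of members tested in brackets, as deposited (filled circles) and after median-of-ratios scaling (open diamonds). Nuclear respiratory chain genes stand 1.28 above and circadian clock genes at -1.07, while heat shock and p53 genes lie near 0.

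Markers of cell types were set beside these groups. In RNA from whole tissue, fewer cells of a type and less RNA per cell cannot be told apart. The 22 markers of colon epithelium summed to 97.4, 1139 and 1389 FPKM in the vehicle and to 2047, 2372 and 2499 FPKM with cymopol, so all cymopol libraries were above all vehicle libraries, and 7 of 21 tested members (33.3%, beside 19.2% of all genes) were higher without overlap. Their median was 1.12 above all genes, 0.46 above without vehicle replicate 2 and 1.84 above without vehicle replicate 5. Surface colonocyte markers overlapped, at 253, 1406 and 3846 against 2524, 3563 and 2718 FPKM. Goblet cell markers overlapped too in their sum, at 215, 732 and 1045 against 1108, 1625 and 657 FPKM. Of 14 goblet cell markers tested, 5 (35.7%, beside 19.2% of all genes) were higher without overlap, at a median 0.75 above all genes. That median lay between 0.60 (without vehicle replicate 5) and 1.19 (without cymopol replicate 14) with 1 library left out. Tight junction genes had 6 of 18 (33.3%) higher without overlap, at a median 1.05 above all genes. Of the 18, 2 passed the filter through the cymopol libraries alone. Ocln, occludin, had 1.10, 3.48 and 0 against 5.67, 12.1 and 12.5 FPKM, and Cldn2, a pore-forming claudin of crypt cells, had 0.675, 0.983 and 0 against 3.59, 14.1 and 11.6 FPKM. Stem cell and Wnt target genes had 6 of 13 (46.2%) higher without overlap, but their median was 0.64 above all genes, 0.34 without vehicle replicate 4, 0.99 without vehicle replicate 2 and 0.12 where the vehicle was detected. Of the 13, 4 passed the filter through the cymopol libraries alone. Pyy, the peptide YY of enteroendocrine L cells, was listed at 0 in the vehicle and had 30.2, 55.0 and 22.5 FPKM with cymopol (5.11 ± 1.18 SE; limma, adjusted p = 0.0747). It passed the filter through the cymopol libraries alone. The part of the epithelial share in the differences of respiratory and NRF2 genes was not tested.

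Single libraries carried some of the cell type signals. Markers of small intestine enterocytes and Paneth cells summed to 85.6, 38.0 and 1535 FPKM with cymopol and 68.6, 12.8 and 52.3 FPKM in the vehicle, with cymopol replicate 14 far above the rest. In that library Apoa1, the enterocyte apolipoprotein, had 549 FPKM, against 0.8 and 4.89 FPKM in the other 2 cymopol libraries, and Alpi, the alkaline phosphatase of the small intestine, had 53 against 7.57 and 4.65 FPKM. Slc39a4, a zinc importer of enterocytes, was likewise highest there, with 16.9, 10.6 and 49.5 FPKM with cymopol and 0.0679, 0.222 and 3.93 in the vehicle. Cymopol replicate 12 had 152 FPKM of Ano1, the chloride channel of interstitial cells of Cajal, against 16.5 and 6.75 in the other cymopol libraries. It also had 637 FPKM of Saa1, an acute-phase protein of the epithelium, against 26.4 and 21.9 in the other 2 and 20.5, 1.15 and 0 in the vehicle. Vehicle replicate 4 was high for immune cells, with B and plasma cell markers at 536 FPKM in sum against at most 44.8 in each of the other 5 libraries, and MHC class II genes at 697 against at most 126. Cd74, the invariant chain of MHC class II, had 325 FPKM there, and 1.02 and 7.36 in the other vehicle libraries. MHC class II genes stood at -0.90 relative to all genes, at 0.26 without vehicle replicate 4 and at -2.01 without vehicle replicate 2. Smooth muscle markers overlapped, at 151, 1801 and 756 FPKM in the vehicle and 1171, 2368 and 1154 with cymopol, and stood 0.36 above all genes but at -0.14 after median-of-ratios scaling and -0.052 without vehicle replicate 2. Pancreas markers summed to at most 22.2 FPKM in each library.

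**Figure D5:**
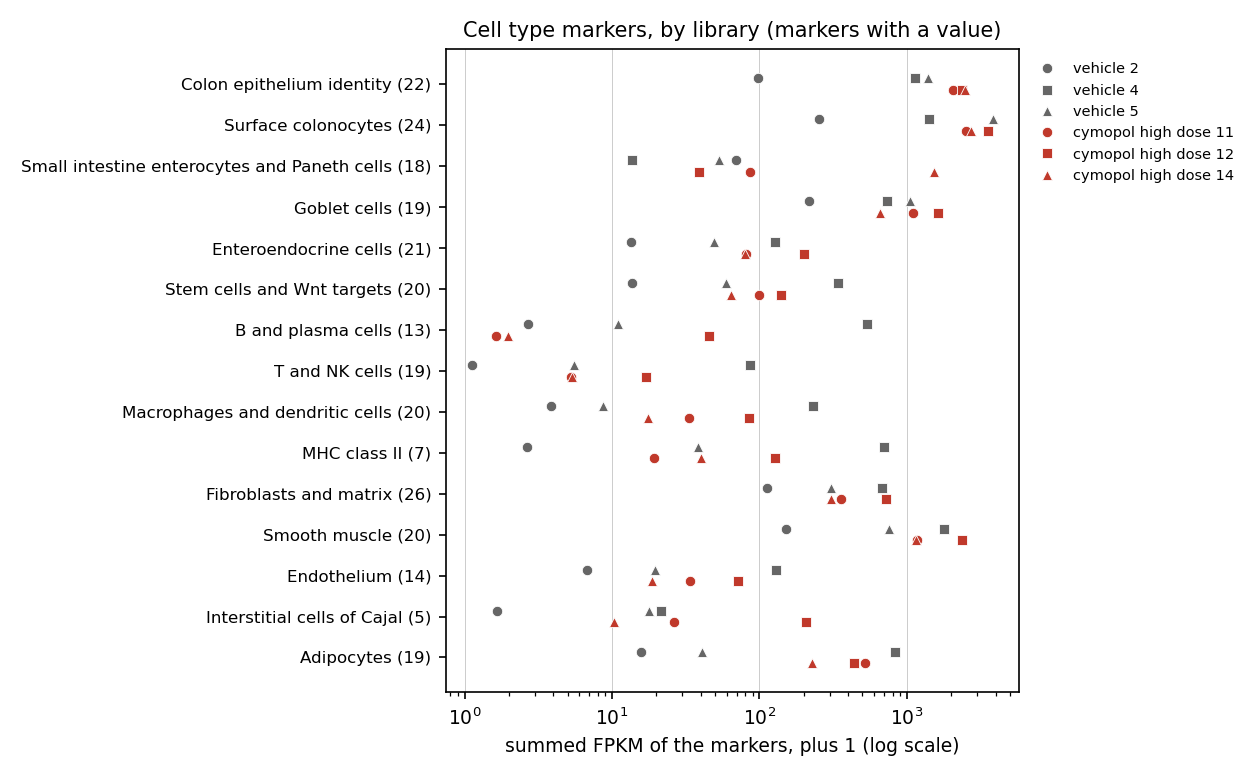
Points give the summed FPKM (plus 1, log axis) of the markers of each cell type in each library, with the number of markers that have a value in brackets, grey for vehicle and red for cymopol high dose. Colon epithelium markers separate the groups, small intestine markers are high in cymopol replicate 14 alone, B cell and MHC class II markers are high in vehicle replicate 4, and vehicle replicate 2 is the lowest for most types.

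Few genes were lower with cymopol, and none of those tested among the 8451 passed. Nop56, a core protein of C/D box snoRNA particles, had 3.23, 82.5 and 41.8 FPKM in the vehicle and was listed at 0 in the 3 cymopol libraries (-4.63; limma, adjusted p = 0.0747). It had 9.80, 30.9 and 7.75 FPKM at the cymopol low dose, and 0, 0 and 1.33 FPKM with the extract. Its vehicle and cymopol values all came from matched assembled loci, so a listing at 0 can depend on how the loci were assembled, which was not tested. Samhd1, a dNTP hydrolase of innate immunity, had 44.3, 15 and 64.6 against 2.39, 7.97 and 0.934 FPKM (-3.22; limma, adjusted p = 0.212). Pim2, a serine-threonine kinase of lymphocytes, had 6.24, 13.1 and 18.6 against 0.663, 0.542 and 0 FPKM (-3.20; limma, adjusted p = 0.127). Both were highest in vehicle replicate 5, and the part of immune cells in their values was not tested. Neither Nop56 nor Pim2 reached 1 FPKM in a cymopol library, so these genes passed the filter through the vehicle libraries alone. Their lack of overlap and p-values are a description and not support.

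Set against the cymopol low dose directly, the high dose gave 0 calls among 1012 genes, with 74 (7.31%) higher and 4 (0.395%) lower at an unadjusted p under 0.05, and a median difference of 0.64. Low dose replicates 33, 34 and 35 held an estimated 38191, 66989 and 201656 fragments in genes, fewer than any high dose library. The part of this lower depth in the differences and in listings at 0 was not tested. With matched loci 1 of 8910 genes (0.0112%) was called, Snord8, which was listed at 0 in the 3 low dose libraries and had 123, 113 and 15.7 FPKM at the high dose (5.95; limma, adjusted p = 0.0133). It passed the filter through the high dose libraries alone, so the call is a description. This count was 0 without cymopol replicate 12 or low dose replicate 35, 2 without low dose replicate 33 and 3 without low dose replicate 34. The genes called against the vehicle were chosen as high in these same high dose libraries, so their values at the low dose are given as a description. Tff3 had 40.3, 133 and 96.1 FPKM at the low dose, near its high dose values. Gpx2 had 0, 1.31 and 6.78 FPKM at the low dose, below all 3 high dose libraries, and Nqo1 had 0, 0 and 6.64 FPKM, with overlap. Cox7c had 22.9, 21.0 and 19.2 FPKM, within the range of the high dose. Ndufa4 and Snord8 were listed at 0 in all 3 low dose libraries.

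The extract high dose libraries held an estimated 191502, 594335 and 300935 fragments in genes, 56.9% to 64.9% of all their fragments. Against them the median difference was 0.11. Of 886 genes 0 were called higher and 1 (0.113%) was called lower with cymopol, Snord11, a C/D box snoRNA on chromosome 1 that was listed at 0 in the cymopol libraries and had 97.3, 151 and 31.0 FPKM with the extract (limma, adjusted p = 0.0163). Snord11 passed the filter through the extract libraries alone. The call was lost without cymopol replicate 11 or 12 or extract replicate 21 or 23. With matched loci Snord11 was again the 1 lower gene of 9578 (0.0104%), with a difference of -6.29 (limma, adjusted p = 0.00312). The 1 gene called higher (0.0104%) was mt-Nd6, the complex I subunit encoded on the light strand of mitochondrial DNA. These 2 calls became 4 without cymopol replicate 14. mt-Nd6 had 45.1, 79.7 and 40.9 FPKM with cymopol and was listed at 0 in the 3 extract libraries (5.75; limma, adjusted p = 0.00312). In this comparison mt-Nd6 passed the filter through the cymopol libraries alone, which makes its call a description. In the vehicle it had 40.9, 29.8 and 0 FPKM. Of the 6 genes of mitochondrial DNA with a value in each vehicle and cymopol library, the other 5 were listed at 0 in all 6 libraries, although every cell uses them, so a listing at 0 for such a gene cannot be read as low expression. Of the antioxidant genes, Nqo1 had 22.4, 7.45 and 8.03 FPKM with the extract, above all cymopol libraries, and Hmox1 had 23.0, 5.10 and 2.96 FPKM, with overlap. Akr1b8 had 35.3, 23.6 and 16.1 FPKM, also with overlap, and none of the 3 passed (limma, adjusted p = 0.999 for each).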

How the data were processed

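RNA of the large intestine was sequenced after depletion of ribosomal RNA from 90 ng of total RNA, per the labels. The aligner was STAR 2.4.0j and the genome build GRCm38.p4, per the submitters' processing notes. The authors deposited FPKM with an interval per locus, 1 library each, in the layout of a Cufflinks gene tracking table per the file headers. The annotation release, the settings of the quantifier and any scaling between libraries were not given in the sources used here.

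The 6 libraries, grouped by their titles, were compared as log2(FPKM + 1) with limma 3.58.1 (intensity trend, two-sided) in R 4.3.3, with Benjamini-Hochberg adjustment over all genes tested and calls at an adjusted p under 0.05, after a test on simulated data. The width of each deposited interval gave an estimate of the fragments behind a value, which is approximate. In an alternative, annotated genes lacking a value took that of an assembled locus where the overlap was at least 0.5 of the combined span and the best one for both. Symbols and positions are from GENCODE M21, which held 37764 of 38189 identifiers, 82.1% of them with the same start and end. Gene lists are described by counts and medians, without a set test.

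Always named were 13 antioxidant and detoxification genes. Also named were the 10 called genes of largest difference in each direction without overlap, filled by smallest p where fewer were called. To these came the largest differences without overlap among genes above 0 in all 6 libraries, and up to 4 members of each list by smallest p. Members and lists were chosen with earlier results of these data known. Alternatives changed the pseudocount, scaling, filter, test, genes and libraries, and the planned ones were written down before the others. Replicate numbers are not shared between groups, so nothing was paired.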

Additional observations from a re-analysis of the deposited data

How the results depend on the processing

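No paired analysis was possible because the groups share no replicate numbers. The 101 calls against the vehicle (100 higher, 1 lower) lay between 71 and 121 with a pseudocount of 0.1, median-of-ratios scaling, array weights or protein-coding genes alone. Calls numbered 0 without the filter, with values above 0 in all 6 libraries or with a vehicle library at 1 FPKM, 3 at a mean of 1 FPKM, 31 at 5 FPKM, 53 at 5 estimated fragments, 6 after quantile normalization, 38 with all 15 libraries, 36 without the trend, 15 with voom and 14 with voom on genes with a usable fragment estimate. Leaving out 1 library gave 0 to 90. With matched loci, an alternative chosen after seeing the data, calls numbered 0 at a shared span of 0.5 or 0.8, 433 with a pseudocount of 0.1, 3 after median-of-ratios scaling, 6 after quantile normalization, 13 with all 15 libraries, 47 with array weights, 1 at 5 fragments, 4 without the trend, 33 with voom and 107 at 5 FPKM. They numbered 0 with voom on genes with a usable estimate, under the other filters, with protein-coding genes alone and without any 1 library. Against the low dose the 0 calls became 1 with matched loci (0 to 3 without 1 library). Against the extract the 1 call became 2 with a pseudocount of 0.1 or median-of-ratios scaling and 0 to 1 without 1 library, and with matched loci 2, 3 with a pseudocount of 0.1, 2 after scaling or without the filter and 2 to 4 without 1 library. The lists with a median above that of all genes stayed at 68.9% to 100%, against 84.6%, under the alternatives where they were counted. They were not counted with array weights or voom. The library measures kept their direction without any 1 library. The cause of these changes was not tested, apart from fewer libraries or genes where the alternative removes them.

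Of 85 named genes with a fit, 34 were called, and of their values over all alternatives 42 turned direction. With voom these were Gm25636 (-0.010), Gm44364 (-0.033) and Gpx2 (-2.10), and with voom on matched loci Car1 (-0.32), Gclm (-0.42), Gm25636 (-0.38), Gm44364 (-0.36), Gpx2 (-2.48), Gpx4 (-2.49), Gsta1 (-0.00124), Hist1h4b (-0.080), Hist2h2ac (-0.36), Hlf (-0.46), Muc2 (-0.013), Snora62 (-0.26), Snora78 (-0.41) and Txnrd1 (-2.48). With the last setting kept to genes with a usable estimate they were Car1 (-0.48), Gclm (-0.42), Gm25636 (-0.19), Gm44364 (-0.17), Gsta1 (-0.0025), Muc2 (-0.21), Snora62 (-0.065) and Snora78 (-0.22). After median-of-ratios scaling these were Car1 (-0.16), Gclm (-0.62) and Muc2 (-0.91, and -0.90 with matched loci), after quantile normalization Gclm (-0.32) and Muc2 (-0.70, and -0.37), and with array weights Muc2 (-0.16) and Cd74 (0.34). Without vehicle replicate 2 these were Car1 (-0.48), Gclm (-0.031) and Muc2 (-0.33). Cd74 stood at 0.17 with a pseudocount of 0.1, 2.05 without vehicle replicate 4, 0.72 without cymopol replicate 11 and 0.022 without replicate 14. Depth limits most genes, since 1 fragment in vehicle replicate 5 is worth 10.8 times as many FPKM as in cymopol replicate 11.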
